A study of Mus musculus with 8 samples.

Results

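The genes described here are 10 genes of the Toll-like receptor and NF-kB pathway, chosen by symbol: Tlr2, Tlr4, Cd14, Ly96, Lbp, Myd88, Nfkb1, Nfkbia, Tnfaip3 and Icam1. All 10 were found among the 23284 genes of the count table. Polyadenylated RNA was sequenced from mouse alveolar organoids, three-dimensional cultures of lung cells grown in drops of matrigel in FNHCAS medium. The cells of both groups carry an Sftpc-eGFP transgene, in which the promoter of Sftpc, the surfactant protein gene that marks alveolar type 2 (AT2) cells, drives green fluorescent protein (GFP). The organoids came as 4 lines, named SN2285, SN2286, SN2293 and SN2294, and each was sorted into eGFP+ cells, here GFP-positive, and eGFP- cells, here GFP-negative, with 1 library per sort and line and 4 libraries per group. No treatment other than the sort is labelled, and the labels give neither the age of the mice nor whether the lines stem from separate animals, so the p-values measure the spread between lines as cultured. Without pairing by line this is the spread among lines within each sort, and paired by line that of the differences within lines.

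Toll-like receptors are membrane proteins that recognise microbial products. TLR4 senses bacterial lipopolysaccharide, which the carrier protein LBP delivers to CD14 and CD14 passes on to the complex of TLR4 with its co-receptor MD-2, the product of Ly96, while TLR2 senses bacterial lipoproteins. The adaptor MyD88 then starts a kinase relay that destroys the inhibitor IκBα, encoded by Nfkbia, and frees NF-kB dimers such as those built with p50, the processed product of Nfkb1. NF-kB in turn induces Nfkbia and Tnfaip3, which encodes the inhibitor A20, as feedback, and many effector genes such as Icam1, an adhesion molecule that leukocytes bind. In the lung, airway and alveolar epithelial cells meet inhaled microbial products through this pathway, and ICAM-1 is known from rodents as a surface protein of alveolar type 1 cells.

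The 10 genes did not move together. Levels are CPM, counts scaled to a common library total with a composition factor, and a log2 fold change is positive where the level was higher in GFP-positive cells. A gene was called at a false discovery rate (FDR) of 0.05 in edgeR's quasi-likelihood test, with p-values adjusted by Benjamini and Hochberg over the 12848 genes tested. By that rule, without pairing by line, 3 of the 10 were higher in GFP-positive cells (Icam1, Cd14 and Tlr4), 4 were lower (Tlr2, Lbp, Ly96 and Nfkbia) and 3 were not called (Myd88, Nfkb1 and Tnfaip3). The sort changed many genes: 40.7% of all tested genes were called, 18.9% higher and 21.8% lower. Paired by line, with line as a second term in the fit, 4 of the 10 were higher and 5 lower. Myd88 joined the higher and Nfkb1 the lower genes, and 48% of all tested genes were called. The median log2 fold change was −0.17 over the 10 genes and −0.01 over all genes tested, and all 10 passed the filter on low counts.

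Total counts were 11202576 to 16032633 in the GFP-positive libraries and 5910344 to 15583384 in the GFP-negative ones, the lowest being that of line SN2294. Sftpc checked the sort labels, with 17652 ± 2121 CPM after sorting for eGFP and 871 ± 416 CPM in the cells without it (SD, n = 4). The 8 AT2 markers summed to between 39811 and 45371 CPM where eGFP was sorted for and between 4679 and 6464 CPM where it was not. Basal cell markers (6 genes) ran the other way, with sums of 18.2 to 57.4 and of 1477 to 1973 CPM respectively, as did 8 fibroblast and smooth muscle markers, with 10.9 to 20.6 and 382 to 700.0 CPM. Of 6 club and secretory cell markers, Cyp2f2 and Cbr2 were 35.2-fold and 50.2-fold lower in GFP-positive cells (edgeR, adjusted p = 1.4e-04 and 4.0e-04), 3 were not called and 1 was not tested. The sum of the 6 differed by line, from 11.8 CPM in SN2294 to 1004 CPM in SN2286 among GFP-positive libraries and from 673 to 1769 CPM, in the same lines, among GFP-negative ones. These differences in cell type markers move with every comparison below, and their part in it was not tested. In such bulk RNA, fewer cells of a type and less RNA per cell cannot be told apart.

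The GFP-negative library of line SN2294 also held macrophage transcripts. Without Lyz2, which was high in every GFP-negative library, 18 macrophage and leukocyte markers summed to 146 CPM there, to 20.4, 30.6 and 32.0 CPM in the GFP-negative libraries of SN2286, SN2293 and SN2285, and to 13.5 to 21.2 CPM in GFP-positive ones, most of it Cd68. Picked by their counts, the markers Ptprc, Itgax, Marco and Fcgr1 were at 0 counts in the other GFP-negative libraries. They were at 26, 53, 5 and 4 counts in that of SN2294. Fcer1g, Mrc1 and Fcgr3 had 10, 7 and 39 counts over the other GFP-negative libraries and 27, 99 and 86 in that of SN2294. The T cell gene Cd3e was at 0 in all 8. None of 8 endothelial markers was above 2 CPM in any library, and their sum was at most 2.52 CPM. Since macrophages carry Tlr2, Tlr4, Cd14 and Ly96, values without that library are given for these genes below.

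The 250 bases before the transcription start show how 4 of the 10 genes carry NF-kB motifs. RefSeq windows on GRCm38.p6 were found for 5 of the 10 genes, with 2 starts for Tnfaip3. They were searched on both strands for the spelled-out motif GGAAATTCC, picked after the windows had been read, and for the 10-letter NF-kB consensus. The windows with a match are shown 5′ to 3′ along the gene's own strand, with matched letters in capitals. They are Icam1 at chr9:21015690-21015939 (plus strand), Nfkbia at chr12:55492648-55492897, Tnfaip3 at chr10:19015411-19015660 and Tlr2 at chr3:83841609-83841858 (the last 3 on the minus strand).
Icam1: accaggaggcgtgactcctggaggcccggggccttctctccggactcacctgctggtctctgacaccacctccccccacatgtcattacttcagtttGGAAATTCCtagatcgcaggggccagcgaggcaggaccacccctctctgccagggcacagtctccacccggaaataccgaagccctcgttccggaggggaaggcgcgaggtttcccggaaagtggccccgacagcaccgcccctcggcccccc
Nfkbia: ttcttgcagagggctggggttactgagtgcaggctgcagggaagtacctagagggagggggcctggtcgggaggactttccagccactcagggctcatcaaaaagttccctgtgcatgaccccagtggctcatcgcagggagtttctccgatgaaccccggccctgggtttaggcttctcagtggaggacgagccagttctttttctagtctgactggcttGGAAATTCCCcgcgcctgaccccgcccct
Tnfaip3: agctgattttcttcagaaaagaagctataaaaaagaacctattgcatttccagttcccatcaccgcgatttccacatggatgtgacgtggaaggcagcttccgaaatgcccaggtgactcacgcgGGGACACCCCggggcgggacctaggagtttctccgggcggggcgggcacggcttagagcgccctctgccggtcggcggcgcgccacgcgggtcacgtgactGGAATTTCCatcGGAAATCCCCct
Tlr2: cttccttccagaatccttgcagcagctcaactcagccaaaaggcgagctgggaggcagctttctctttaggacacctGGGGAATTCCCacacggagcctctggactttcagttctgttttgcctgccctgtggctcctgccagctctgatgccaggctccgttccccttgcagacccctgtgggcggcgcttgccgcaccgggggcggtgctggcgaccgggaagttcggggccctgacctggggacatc

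The motif GGAAATTCC, or its reverse complement, lay 153 to 145 bases before the start of Icam1, 29 to 21 before that of Nfkbia and 24 to 16 before that of Tnfaip3. Of the 32851 such windows available, which do not cover every gene, 0.286% held it. The 10-letter consensus matched in Nfkbia, where it overlaps the spelled-out motif, at 2 places in Tnfaip3 and in 2 overlapping frames in Tlr2, and in 7.25% of all windows. Neither motif matched in the window of Myd88 or at the other start of Tnfaip3. A match describes letters and not a bound site. As the spelled-out motif was picked after the windows had been read, its share over all windows is no test of its presence here. The 3 genes that share it had different calls, with Icam1 higher, Nfkbia lower and Tnfaip3 not called.

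Icam1 differed most in favour of the GFP-positive cells. Its level was 1405, 1252, 1511 and 1466 CPM in GFP-positive cells of lines SN2285, SN2286, SN2293 and SN2294, against 520, 446, 474 and 506 CPM in GFP-negative cells. The groups did not overlap, and within each sort the 4 lines lay close together. Icam1 was 2.90-fold higher in GFP-positive cells (log2 fold change 1.53 with SE 0.08, adjusted p = 6.9e-08, edgeR), and the difference within a line ran from 1.43 to 1.67 on the log2 scale. Per kilobase of exon, its level of 556 ± 44.5 CPM in GFP-positive cells was the highest of the 10 genes there, followed by Cd14 at 190 ± 31.5 (SD, n = 4), with no overlap between them. Vcam1, a related adhesion molecule chosen once its values were known, was at 250.4 ± 43.2 and 155 ± 52.5 CPM, higher in GFP-positive cells in all 4 lines, and was not called without pairing (adjusted p = 0.069) but was called paired by line (log2 fold change 0.73, adjusted p = 5.5e-04).

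**Figure D1:**
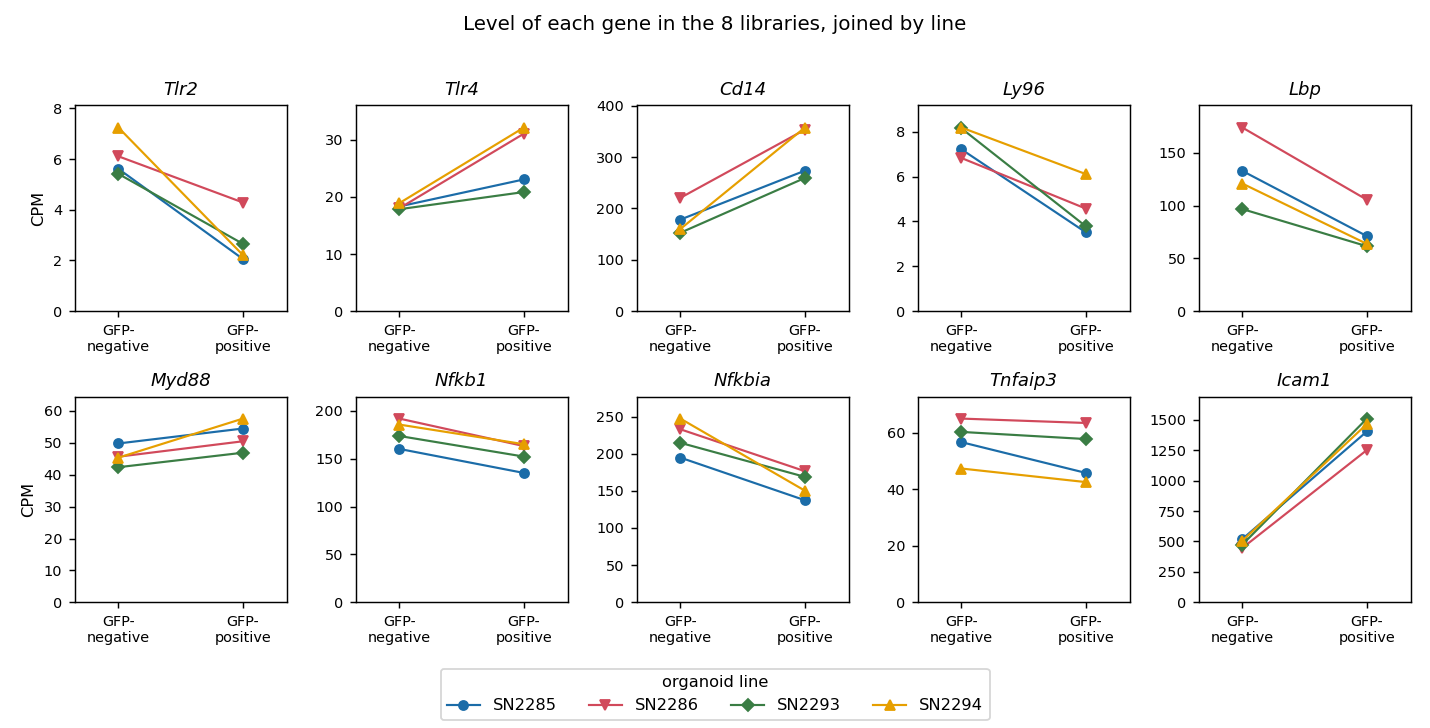
Level of each of the 10 genes (CPM, linear axis from 0) in the GFP-negative and GFP-positive library of each organoid line, with a line joining the libraries of 1 organoid line. The GFP-positive library is the higher of the pair in all 4 lines for Icam1, Cd14, Tlr4 and Myd88, and the lower for the other 6 genes.

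The parts of the lipopolysaccharide receptor went in opposite directions. Cd14, which encodes the surface protein that loads lipopolysaccharide onto TLR4, was at 274, 353, 259 and 358 CPM in GFP-positive cells of lines SN2285, SN2286, SN2293 and SN2294 and at 178, 221, 153 and 160.0 CPM in GFP-negative cells. All GFP-positive libraries were above all GFP-negative ones, a 1.75-fold difference (log2 fold change 0.80 with SE 0.14, adjusted p = 8.8e-04, edgeR). Tlr4 itself was at 23.1, 31.1, 20.8 and 32.1 CPM in GFP-positive and at 18.3, 18.001, 17.8 and 18.9 CPM in GFP-negative cells of the same lines. The GFP-negative libraries were nearly level, while the GFP-positive ones formed a lower pair (SN2285 and SN2293) and a higher pair (SN2286 and SN2294), all above them. The gene was 1.47-fold higher in GFP-positive cells (log2 fold change 0.55 with SE 0.14, adjusted p = 0.0081).

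Ly96, whose product MD-2 holds the lipid part of lipopolysaccharide against TLR4, was lower where Tlr4 was higher. It was at 3.51, 4.57, 3.78 and 6.11 CPM in GFP-positive and at 7.22, 6.83, 8.16 and 8.19 CPM in GFP-negative cells of lines SN2285, SN2286, SN2293 and SN2294, from 41 to 134 counts per library. The groups did not overlap, although the highest GFP-positive library (SN2294) came close to the lowest GFP-negative one, and Ly96 was 1.67-fold lower in GFP-positive cells (log2 fold change −0.74 with SE 0.20, adjusted p = 0.011). Per kilobase of exon, the 4 genes that handle lipopolysaccharide stood at 190 ± 31.5 (Cd14), 22.8 ± 6.19 (Lbp), 7.11 ± 1.85 (Ly96) and 4.90 ± 1.04 CPM (Tlr4) in GFP-positive cells. In GFP-negative cells they stood at 108 ± 18.6, 39.7 ± 9.77, 12.0 ± 1.08 and 3.34 ± 0.086 CPM, in the same order. Ly96 and Tlr4 overlapped between libraries in GFP-positive cells, where the lowest Ly96 value was 5.56 and the highest Tlr4 value 5.88 CPM per kilobase, and were apart in GFP-negative cells.

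Lbp, the gene of the secreted lipopolysaccharide carrier, differed between lines as much as between sorts. It was at 71.0, 105.5, 61.5 and 63.7 CPM in GFP-positive and at 133, 174, 96.7 and 121 CPM in GFP-negative cells of lines SN2285, SN2286, SN2293 and SN2294. The groups overlapped, because the GFP-positive library of SN2286 lay above the GFP-negative one of SN2293, but SN2286 was highest and SN2293 lowest in both sorts and all 4 lines were lower in GFP-positive cells. The fall was 1.74-fold (log2 fold change −0.80 with SE 0.23, adjusted p = 0.023). That call was lost in 4 of the 8 fits that leave out a library, where the adjusted p was 0.066, 0.062 or 0.064 when the GFP-positive library of SN2285, SN2293 or SN2294 was dropped and 0.054 when the GFP-negative library of SN2285 was. With line as a term the differences within lines, −0.65 to −0.92, gave an SE of 0.07 and adjusted p = 1.1e-06.

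Tlr2, the receptor for bacterial lipoproteins, was low in every library and lower in GFP-positive cells. It was at 2.06, 4.29, 2.66 and 2.21 CPM (24 to 45 counts) in GFP-positive and at 5.62, 6.11, 5.42 and 7.25 CPM (46 to 93 counts) in GFP-negative cells of lines SN2285, SN2286, SN2293 and SN2294. The groups did not overlap, and Tlr2 was 2.17-fold lower in GFP-positive cells (log2 fold change −1.12 with SE 0.25, adjusted p = 0.0037, edgeR). The difference varied among lines, from −0.50 in SN2286 to −1.65 in SN2294, the line whose GFP-negative library held macrophage transcripts. Without that library Tlr2 stood at −1.04 (adjusted p = 0.0089), Ly96 at −0.71 (0.023), Cd14 at 0.76 (0.0043) and Tlr4 at 0.57 (0.015), all with the same call. In that library itself the 4 genes stood at 1.27, 1.11, 0.870 and 1.05 times their mean in the other GFP-negative libraries, and the macrophage markers at 0.872 (Lyz2), 1.84 (Cd68) and 10.3 to 106 times theirs, the last for 6 markers with only 5 to 39 counts over the other 3 libraries. Markers with 3 or fewer counts over those 3 libraries were left out of these ratios. Of them, Csf1r, Laptm5, Tyrobp and Itgam had 1, 2, 2 and 2 counts there, against 69, 65, 47 and 30 for SN2294. S100a8 had 3 counts there, against 1. In the GFP-negative library of SN2294, Tlr2 was at 7.25 CPM against at most 6.11 in the others, while Fcer1g, Mrc1 and Cd68 were at 4.25, 15.6 and 46.5 CPM. The part of macrophage transcripts in the values of that library was not tested.

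**Figure D2:**
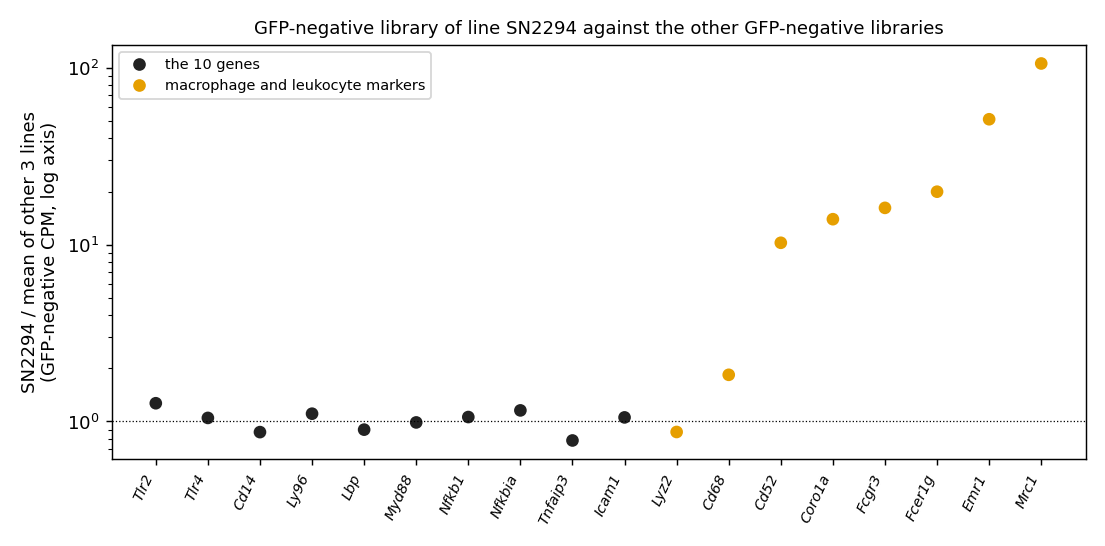
Level in the GFP-negative library of line SN2294 divided by the mean of the other 3 GFP-negative libraries (CPM ratio, log axis) for the 10 genes (black) and for macrophage and leukocyte markers with more than 3 counts in those 3 libraries (orange). The 10 genes lie between 0.780 (Tnfaip3) and 1.27 (Tlr2), and the 8 markers shown lie at 0.872 (Lyz2), at 1.84 (Cd68) and between 10.3 (Cd52) and 106 (Mrc1), where the other libraries had near 0.

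Myd88, the adaptor gene shared by most Toll-like receptors, was at 54.5, 50.5, 46.9 and 57.6 CPM in GFP-positive and at 49.8, 45.7, 42.4 and 45.4 CPM in GFP-negative cells of lines SN2285, SN2286, SN2293 and SN2294. It was slightly higher in the GFP-positive library of every line, but the groups overlapped and the gene was not called (log2 fold change 0.19, 95% interval 0.0014 to 0.39, adjusted p = 0.10, edgeR). Paired by line it was called at the edge of the threshold (0.19, adjusted p = 0.049), and no longer without line SN2294 (0.15, adjusted p = 0.13).

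Nfkb1, which encodes the p105 precursor of the p50 subunit, was at 135, 163, 152 and 165 CPM in GFP-positive and at 160.3, 192, 174 and 186 CPM in GFP-negative cells of the same lines. The groups overlapped, yet each line was lower in GFP-positive cells, by between 0.17 and 0.25 on the log2 scale. The gene was not called without pairing (log2 fold change −0.21, 95% interval −0.39 to −0.02, adjusted p = 0.069) and was called with line as a term (−0.21, SE 0.06, adjusted p = 0.013). The SD of its differences within lines, 0.04 on the log2 scale, was the smallest of the 10 genes, against a median of 0.19 over all genes tested.

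Of the feedback inhibitors, Nfkbia was called and Tnfaip3 was not; the difference between them was not tested. Nfkbia, the gene of IκBα, was at 137, 176, 169 and 150.2 CPM in GFP-positive and at 195, 233, 215 and 247 CPM in GFP-negative cells of lines SN2285, SN2286, SN2293 and SN2294. The groups did not overlap, and Nfkbia was 1.41-fold lower in GFP-positive cells (log2 fold change −0.49 with SE 0.10, adjusted p = 0.0017, edgeR). Tnfaip3, the gene of the ubiquitin-editing enzyme A20, was at 45.8, 63.6, 57.9 and 42.6 CPM and at 56.8, 65.1, 60.4 and 47.4 CPM in the same order. Its 2 groups largely overlapped, SN2286 being highest and SN2294 lowest in both, and it was not called (log2 fold change −0.14, 95% interval −0.44 to 0.16, adjusted p = 0.46), nor with line as a term (adjusted p = 0.15).

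**Figure D3:**
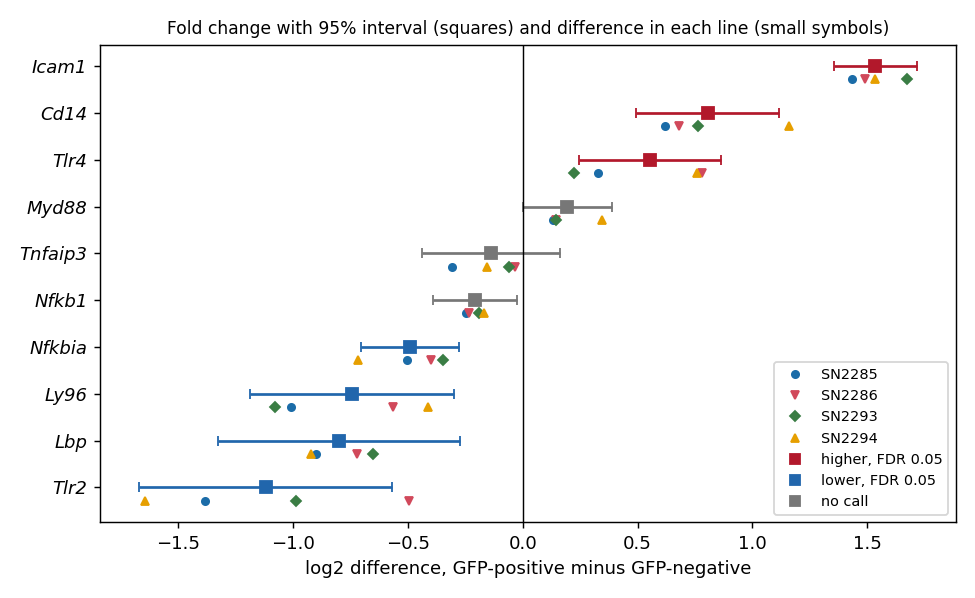
Log2 fold change of each of the 10 genes with its 95% interval (large squares with bars, coloured by call) and, under each, the log2 CPM difference within each of the 4 organoid lines (small symbols). Icam1, at 1.53, stands apart from Cd14 and Tlr4 at 0.80 and 0.55, and Tlr2 is lowest at −1.12.

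In all, the 4 GFP-positive and 4 GFP-negative libraries did not overlap for 6 of the 10 genes (Icam1, Cd14, Tlr4, Tlr2, Ly96 and Nfkbia), and 39.5% of all tested genes showed this. The direction was the same in all 4 lines for each of the 10, as it was for 58.7% of all tested genes. Only Icam1 and Tlr2 among the 10 were both called and changed at least 2-fold, beside 15.5% of all tested genes. Within a sort, Tlr2 varied most among the GFP-positive lines (SD of log2 CPM 0.45, against a median of 0.16 over all genes), and Lbp most among the GFP-negative lines (0.35, against 0.16).

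The tested genes closest to each of the 10 were found by the root mean square (RMS) difference in log2 CPM over the 8 libraries, after each gene was centred on its own mean. Any gene that differs between the sorts by a like amount comes out near, and no shared role is read from it. Closest to Icam1 were Npc2 (RMS 0.08) and Thsd4 (0.09), to Cd14 Cadps2 (0.08) and Ercc6l (0.12), and to Tlr4 Stk17b (0.07) and Fam102b (0.10). Closest to Tlr2 were Tmem95 (0.15) and Frmd7 (0.16), to Ly96 Lamb1 (0.13) and Sgms2 (0.14), and to Lbp Fry (0.09) and Tmem173 (0.16). Myd88 lay nearest to Rabif and Marveld2 (both 0.03), Nfkb1 to Snrpd3 (0.03) and Gtf2h1 (0.04), Nfkbia to Terf1 and Fam175a (both 0.07) and Tnfaip3 to Cc2d2a (0.06) and A930005H10Rik (0.07).

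The wider pathway was read from 6 further lists of 112 genes, all in the table, of which 93 passed the filter. Of these, 18 were higher and 24 lower in GFP-positive cells, or 45.2% called, close to the 40.7% of all genes, with a median log2 fold change of −0.04. Paired by line, 25 were higher and 31 lower, or 60.2% called, against 48% of all genes. By list, the share called ran from 0 of 5 NF-kB family genes to 12 of 17 receptors. Among adaptors, kinases and ubiquitin enzymes 6 of 27 were called, or 22.2%, and 1 of them was higher. Among target genes 16 of 23 were called (69.6%), and among other receptors that lead to NF-kB 12 of 17 (70.6%).

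**Figure D4:**
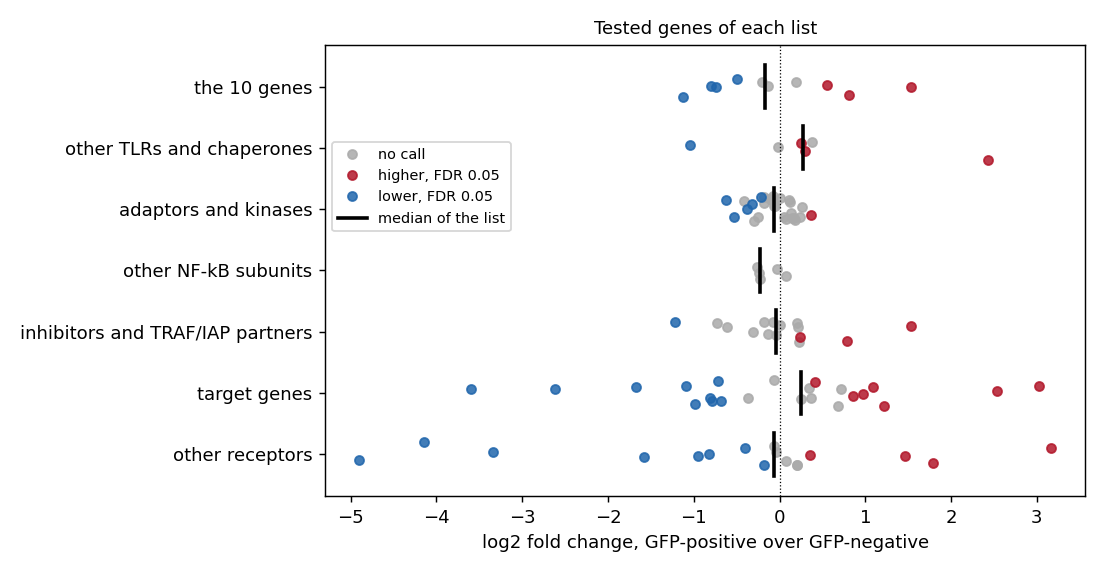
Log2 fold change of every tested gene of the 10 and of the 6 further lists (points, coloured by call; vertical position within a list has no meaning) with the median of each list (black bars). Adaptors, kinases and NF-kB subunits lie between −0.63 and 0.36, while target genes run from −3.59 to 3.03 and other receptors from −4.90 to 3.16.

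Most other Toll-like receptor genes had few or no counts. Of 16 genes for other Toll-like receptors and their partners and chaperones, 6 passed the filter, and GFP-positive cells had 3 of these higher and 1 lower (median log2 fold change 0.27). Over all tested genes 18.9% were higher and 21.8% lower. Tlr3, a sensor of double-stranded RNA named after its value was seen, was at 42.9 ± 9.86 and 42.8 ± 11.7 CPM in the GFP-positive and GFP-negative cells and was not called (log2 fold change −0.01, 95% interval −0.51 to 0.48, adjusted p = 0.97). Tlr5, the flagellin receptor, likewise named after its value was seen, was at 1.83 ± 0.396 and 1.34 ± 0.589 CPM without a call (adjusted p = 0.41). Tlr8, Tlr11 and Tlr12 had 0 of 103108475 counts over the 8 libraries, which allows a level of up to 0.0291 CPM, and Tlr1, Tlr6, Tlr7 and Tlr9 had at most 6 counts in any library. Tlr13 and Cd180 had 27 and 16 counts in the GFP-negative library of SN2294, the one with macrophage transcripts, and at most 1 in any other.

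Among the partners of these receptors, Cd36, a scavenger receptor that helps TLR2 with lipid ligands and takes up fatty acids, was at 675 ± 171 and 125 ± 25.2 CPM in the same order, 5.40-fold higher (log2 fold change 2.43 with SE 0.20, adjusted p = 1.6e-05). Unc93b1, which carries the nucleic-acid receptors to endosomes, was 2.06-fold lower (log2 fold change −1.04 with SE 0.13, adjusted p = 4.9e-05). The chaperone genes Cnpy3 (0.30, adjusted p = 0.0056) and Hsp90b1 (0.25, adjusted p = 0.047) rose slightly in GFP-positive cells. Both calls were lost with scaling by library size alone (0.15 and 0.10), and that of Hsp90b1 also without the GFP-positive library of SN2286, SN2293 or SN2294 or the GFP-negative library of SN2285 or SN2294 (0.20 to 0.28), and paired by line without line SN2294 (0.17).

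Between receptor and NF-kB, 5 of 27 genes were lower and 1 higher, all by less than 2-fold. In the same fit 21.8% of all tested genes were lower and 18.9% higher. The kinase genes Ikbke (log2 fold change −0.53, adjusted p = 5.9e-05) and Irak4 (−0.63, adjusted p = 7.3e-04) and the adaptor gene Tirap (−0.38, adjusted p = 0.0065) fell in GFP-positive cells, and Ripk1, a kinase gene of the TNF receptor arm, rose (0.36, adjusted p = 0.0019). Paired by line (replicate block), 9 of the 27 were lower and 2 higher, where 48% of all tested genes were called. None of the 5 other NF-kB family genes was called by edgeR (1 had an unadjusted p under 0.05) or by DESeq2 (likewise 1). Relb (−0.23), Rel (−0.26) and Map3k14 (−0.22), the kinase gene of the alternative pathway, had negative values, Nfkb2 was at 0.07, and Rela, chosen once its values were known, was at 80.8 ± 9.15 and 82.4 ± 4.63 CPM. With scaling by library size alone, Relb and Map3k14 were called lower and Nfkb2 turned to −0.081 without a call, and Relb was also called without the GFP-positive library of SN2293 (−0.30, adjusted p = 0.025).

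Of 15 genes for other inhibitors and for TRAF and cIAP partners of the pathway, 3 were higher and 1 lower in GFP-positive cells, where 18.9% of all tested genes were higher and 21.8% lower. Paired by line, 4 were higher and 3 lower, where 48% of all tested genes were called. Zc3h12a, an RNase gene that degrades inflammatory transcripts, fell most (log2 fold change −1.22 with SE 0.15, adjusted p = 6.4e-05). Traf1, an adaptor gene that is itself an NF-kB target, rose 2.90-fold, from 2.56 ± 1.17 to 7.76 ± 2.25 CPM (log2 fold change 1.54, adjusted p = 0.0020). Tnip3, which encodes an A20-binding protein, was at 295 ± 43.5 CPM in GFP-positive against 172 ± 26.4 CPM in GFP-negative cells (log2 fold change 0.78 with SE 0.12, adjusted p = 3.9e-04). Traf2 was 1.18-fold higher (0.24, adjusted p = 0.036). Its call was lost with scaling by library size alone (0.09), by upper quartiles (0.23) and without the GFP-positive library of SN2285 or SN2293 or the GFP-negative library of SN2285 or SN2286 (0.21 to 0.23).

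The known NF-kB target genes moved in both directions, 7 of 23 higher and 9 lower in GFP-positive cells, with a median log2 fold change of 0.25. All tested genes had 18.9% higher and 21.8% lower. Paired by line (replicate block), 11 were higher and 10 lower, where 48% of all tested genes were called. Cxcl3, a neutrophil chemokine gene, was at 154, 208, 147 and 277 CPM in GFP-positive and at 26.0, 22.009, 18.4 and 31.5 CPM in GFP-negative cells of lines SN2285, SN2286, SN2293 and SN2294, 8.15-fold higher with no overlap (log2 fold change 3.03 with SE 0.26, adjusted p = 3.8e-05). Tnfaip2 (log2 fold change −1.67 with SE 0.14, adjusted p = 2.6e-06), the macrophage growth factor gene Csf1 (−0.78, adjusted p = 4.4e-05) and the stress response gene Ier3 (−0.68, adjusted p = 1.7e-04) fell. Further targets were named after their values were seen. The neutrophil chemokine genes Cxcl2 (0.97) and Cxcl5 (1.21) and the growth factor gene Csf2 (1.08) were among those higher in GFP-positive cells, and the monocyte chemokine gene Ccl2 (−2.62), the granulocyte growth factor gene Csf3 (−3.59), Tnf (−0.71) and Saa3 (−1.09) among those lower. Il1b and Il6, inflammatory cytokine genes, did not pass the filter, with at most 2 and 14 counts in any library.

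The promoter motif was also compared with the calls of these targets. RefSeq windows were found for 17 of the 23 tested targets. The 10-letter consensus matched in 9 of them, of which 2 were higher in GFP-positive cells, 4 lower and 3 not called. It matched in 7.25% of all windows, but the genes were listed as known NF-kB targets, so no excess is read from this. Of those with a window but no match, Birc3, Bcl2a1b, Csf2 and Gadd45b were higher, Tnf, Ptgs2 and Saa3 lower and Lcn2 not called. Among all 23 tested targets 69.6% were called, and among all tested genes 40.7%. The difference between targets with and without a match was not tested. The motif GGAAATTCC, picked after the windows had been read, was in 5. These were Cxcl3 (log2 fold change 3.03) and Cxcl2 (0.97), which were higher in GFP-positive cells, Cxcl1 (0.71, adjusted p = 0.14), which was not called without pairing and was called paired by line (0.74, adjusted p = 2.8e-06), and Cxcl10 (−0.99) and Ier3 (−0.68), which were lower. With Icam1, Nfkbia and Tnfaip3, the genes that share this motif thus ran from −0.99 to 3.03.

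Among 18 other receptors and receptor-proximal genes that lead to NF-kB, 17 passed the filter, and 4 were higher and 8 lower in GFP-positive cells. By the same rule 18.9% of all tested genes were higher and 21.8% lower. Paired by line, 5 of the 17 were higher and 8 lower, where 48% of all tested genes were called. Il18r1, a subunit of the interleukin 18 receptor, was 3.45-fold higher (log2 fold change 1.78 with SE 0.13, adjusted p = 6.5e-07). The interleukin 1 receptor gene Il1r1 (−0.82, adjusted p = 5.3e-05), the death receptor gene Tnfrsf21 (−1.58, adjusted p = 3.7e-07) and the ectodysplasin receptor gene Edar (−4.90, adjusted p = 3.8e-06) were lower. Edar was at 0.373 ± 0.336 CPM (2 to 9 counts) in GFP-positive and at 10.5 ± 3.35 CPM (51 to 235 counts) in GFP-negative cells. The list also holds Ager, a marker of alveolar type 1 cells, which was among the genes that rose (log2 fold change 3.16, adjusted p = 0.0044, edgeR). Ager ran from 70.8 to 234 CPM in GFP-positive and from 6.57 to 22.4 CPM in GFP-negative cells. No list of type 1 cell markers was examined. Nod2, an intracellular sensor of bacterial peptidoglycan, was 17.6-fold lower (log2 fold change −4.14 with SE 0.49, adjusted p = 5.5e-05, edgeR). It was at 0.500 ± 0.294 CPM (1 to 12 counts) in GFP-positive and at 9.22 ± 4.56 CPM (58 to 236 counts) in GFP-negative cells. Ager and Nod2 were named after their values were seen.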

How the data were processed

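The authors deposited raw read counts per gene symbol, whole numbers without normalization, 1 column per library. Per the submitters' processing notes, the tools were STAR 2.5.3a, cutadapt 1.16, Subread and featureCounts, on build mm9. The sources used here do not state annotation, strandedness or the treatment of multi-mapping reads, so reads of overlapping or antisense genes cannot be told apart. The 10 genes, the further lists and the tests were chosen with earlier results of these data known.

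From the counts, 12848 of 23284 genes passed filterByExpr (a minimum of 10 depth-scaled counts in 4 or more libraries, and of 15 summed over them). They were scaled by TMM and tested in R 4.3.3 with edgeR 4.0.16 (robust two-sided quasi-likelihood test, sort as the only term, Benjamini-Hochberg adjustment over all genes tested, FDR 0.05). SE is the log2 fold change divided by the square root of F. Log2 CPM used a prior count of 2. Reads were amplified and carry no molecular identifiers, so they are not independent molecules and floors cover counting error only.

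The libraries form pairs by line, as both come from the same organoid line. The deviations from the group means of its 2 libraries correlated over genes, with r of 0.37, 0.46, 0.32 and 0.40 (genes are not independent replicates). Between lines r was −0.003 or lower, but centring on group means pushes these values below 0 when r within lines is positive. The replicate block, with line as a second term, was an alternative. Others were DESeq2 1.42.0 size factors and its Wald test, upper quartiles, library size alone, no filter and leaving out each library. No pair of libraries within a group shared more than 1.95% identical counts.

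Named were the 10 genes, up to 4 tested genes of each further list with the smallest p, the 2 genes nearest to each of the 10, and Sftpc; others are marked. Of the listed symbols 2 were matched as older synonyms (Fam105b for Otulin and Emr1 for Adgre1), and Ly6g was not matched. Exon lengths for levels per kilobase are unions of protein-coding exons in GENCODE M21 (GRCm38), a later build than mm9, and are approximate for these counts. No coordinates other than those of the RefSeq windows are given.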

Additional observations from a re-analysis of the deposited data

How the results depend on the processing

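Over 15 alternatives, all 10 genes kept their direction, and Icam1, Cd14, Tlr4, Tlr2, Ly96 and Nfkbia kept their call in each, with log2 fold changes of 1.38 to 1.59, 0.65 to 0.93, 0.40 to 0.66, −1.38 to −0.95, −0.93 to −0.64 and −0.64 to −0.41. Lbp ranged from −1.0002 to −0.63 and was called in 11, Nfkb1 from −0.36 to −0.15 and was called in 6, Myd88 from 0.04 to 0.25 and was called in 1, and Tnfaip3 was called in none. Without 1 library in turn, 3 of the 10 were higher and 3 or 4 lower. With line as a term (replicate block) 4 of the 10 were higher and 5 lower, where 48% of all tested genes were called. The block changed no other call among the 10 than those of Myd88 and Nfkb1, and moved the calls over all genes from 5231 to 6169, of which 5220 were shared.

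With scaling by library size alone, the median over all genes went from −0.01 to −0.16 on the log2 scale and the share of higher calls from 46.5% to 26.4%. It gave 39 lower genes among the further lists in place of 24, and turned Nfkb2 from 0.07 to −0.081. It also moved the calls from 6 to 13 of 27 adaptors and kinases (11 with the block). Those of the 15 inhibitors and TRAF and cIAP partners went from 4 to 7 (7 with the block). The calls went from 4 to 2 of 6 other Toll-like receptors and partners, and from 0 to 2 of 5 NF-kB family genes. The 15 inhibitors and TRAF and cIAP partners also gave 6 calls with DESeq2 and 6 without the GFP-negative library of SN2294. They gave 7 with the block and line SN2294 left out, and 10 of 28 adaptors and kinases were called with the latter. Over all tested genes, the calls were 5704 of 12848 with library size alone and 6321 of 12912 with the block and line SN2294 left out. The all-gene calls were 5666 of 15278 with DESeq2's Wald test and 5135 of 13000 without the GFP-negative library of SN2294. The cause was not tested. Among the 10 genes, depth limits Tlr2 and Ly96 most, with as few as 24 and 41 counts in a library.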
